A study of Homo sapiens with 6 samples.

Results

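The genes described here are 10 regulators of mitochondrial apoptosis: BCL2, BCL2L1, MCL1 and XIAP, which favour survival, and BCL2L11, BBC3, PMAIP1, BIK, BAX and BAK1, which favour death. They were chosen by gene symbol. All 10 were named on the array, among 14884 named genes, each by 1 probe set. RNA was read on whole-transcript Affymetrix arrays (Human Gene 2.0 ST) in the established human multiple myeloma lines RPMI8226, KMS11 and U266. Each line was transfected with HiPerFect and either miR-10a mimic or a scrambled negative control, both at 100 nM, and collected after 48 h. Every combination had 1 array, which gave 3 mimic arrays and 3 control arrays, or 2 arrays per line. All 6 RNAs thus came from transfected cells, no untransfected culture was analysed here, and each line is 1 established culture, not a set of patients. In the labels 1 characteristic spells the first line RPI8226, and the titles spell it RPMI8226.

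Proteins of the BCL2 family decide whether the outer membrane of the mitochondrion stays sealed. BAX and BAK1 form the pore, the survival proteins BCL2, BCL-xL (encoded by BCL2L1) and MCL1 hold them and their activators in check, and the BH3-only proteins BIM (BCL2L11), PUMA (BBC3), NOXA (PMAIP1) and BIK bind the survival proteins and release the pore formers. XIAP acts further down, by inhibiting caspases after the pore has opened. Normal plasma cells and many myelomas depend on MCL1, and inhibitors of BCL2, BCL-xL and MCL1 are used or studied as drugs in this disease.

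The microRNA that was supplied is shown by its RefSeq mature sequences (GRCh38.p14, minus strand), because its seed, bases 2 to 8 in capitals, is the stretch that pairs with target transcripts. The labels do not give the sequence of the mimic itself. The 5p strand lies at chr17:48579904-48579926 and the 3p strand at chr17:48579864-48579885.
hsa-miR-10a-5p: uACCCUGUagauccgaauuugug
hsa-miR-10a-3p: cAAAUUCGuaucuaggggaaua
Whether transcripts of the 10 genes hold sites for either seed was not examined here.

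The arrays were checked against plasma cell markers first. Of 7 named markers, 6 averaged 4.70 log2 units or more, the middle value over named genes, led by IRF4, a plasma cell transcription factor, at 10.26 to 10.89, and XBP1, a regulator of secretion, at 9.34 to 9.65. FCRL5 averaged less, at 2.43 to 2.94, and 2 others fell under that level in some arrays, CD38 (3.80 to 9.99) and SLAMF7 (3.27 to 7.73). None of the 9 named markers of B cells, T and NK cells, myeloid cells and stroma averaged that high. The highest of them was NKG7, at 4.00 to 4.64. The 7442 genes at or above that level were tested. Over genes, Pearson's r was 0.992 to 0.993 for the 3 pairs of arrays within a line and 0.715 to 0.779 between lines. All 10 members were among the tested genes, with means over the 6 arrays from 5.27 to 9.53 log2 units.

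The first comparison asks how the 3 lines differ in these regulators. PMAIP1 was the member with the widest spread, 4.25 log2 units higher in KMS11 than in U266, where its mean of 4.67 lay under the 4.70 a gene had to average to be tested (the filter). BCL2 and BBC3 were highest in RPMI8226 and lowest in U266, BCL2L11 was highest in RPMI8226 and lowest in KMS11, and BCL2L1 was highest in U266 and lowest in KMS11. MCL1 and BAK1 were lower in RPMI8226 than in both other lines, and BAX was highest in KMS11. Of the 10 members, 9 passed limma's F test for a difference between lines at an adjusted p of 0.05, but so did 82.4% of all genes tested, so that count sets the members apart in no way. Each line was represented by 2 arrays that differed in treatment. They came from separate transfections, but no label says that the cells were grown as independent cultures. The p-values rest on the spread left after line and treatment, which is how far mimic minus control varied between lines. That spread may be technical and does not measure variation between independent cultures of a line.

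**Figure D1:**
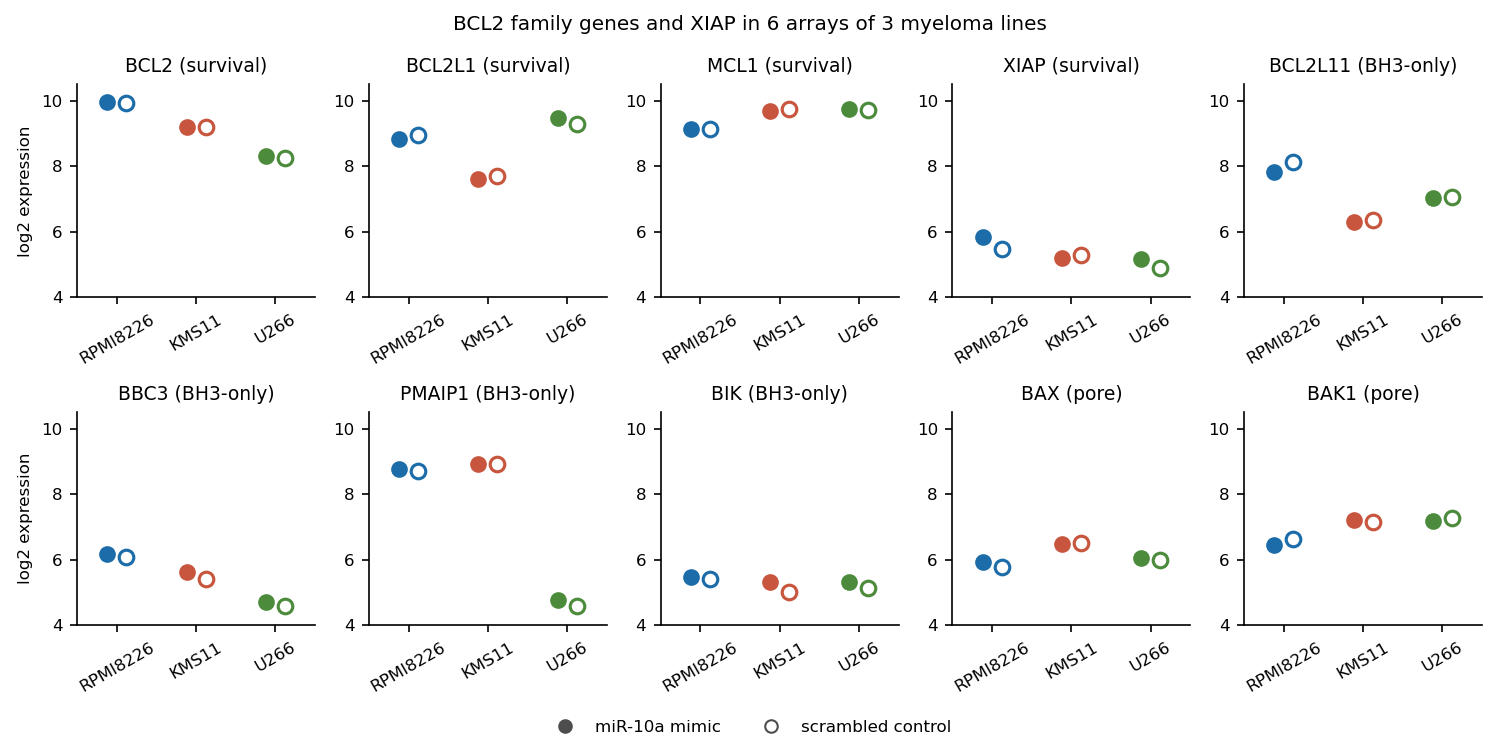
Log2 expression of the 10 genes (y axis, 1 scale for all panels) in RPMI8226, KMS11 and U266 (x axis), with filled points for miR-10a mimic and open points for scrambled control, 1 array each. The 2 points of a line lie within 0.36 log2 units of each other in every panel, and PMAIP1 in U266 lies about 4 units under the other lines.

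Among the survival genes, BCL2, the founding member and the target of venetoclax, had 9.96 and 9.92 log2 units in RPMI8226, 9.22 and 9.20 in KMS11, and 8.32 and 8.25 in U266 (mimic array first, then control). The 3 lines did not overlap, and each step in the order was past the threshold: RPMI8226 minus KMS11 was 0.73 ± 0.08 (log2 difference ± SE) with limma's adjusted p = 0.000425, and KMS11 minus U266 was 0.92 ± 0.08 with adjusted p = 0.000196. From RPMI8226 over U266 the difference came to 3.15-fold. In bulk RNA of this kind a lower level in every cell and fewer cells with the transcript cannot be told apart, and the table holds no call of signal above background.

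BCL2L1, which encodes BCL-xL, had 8.84 and 8.96 log2 units in RPMI8226, 7.61 and 7.70 in KMS11, and 9.48 and 9.28 in U266. KMS11 was thus the low line and U266 the high one, the reverse of BCL2 in these 2 lines. KMS11 minus U266 was -1.72 ± 0.11 (log2, SE; limma's adjusted p = 5.94e-05), or 3.30-fold higher in U266. RPMI8226 minus KMS11 was 1.24 ± 0.11 (adjusted p = 0.000177). The step between RPMI8226 and U266 was smaller, -0.48 ± 0.11 (adjusted p = 0.00835). It lost the threshold without the RPMI8226 mimic array (-0.39, adjusted p = 0.0658) and without the U266 mimic array (-0.33, adjusted p = 0.0586).

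MCL1, whose short-lived protein plasma cells rely on, varied least among the BCL2-type survival genes. It had 9.13 and 9.13 log2 units in RPMI8226, 9.69 and 9.75 in KMS11, and 9.75 and 9.72 in U266. RPMI8226 was the low line: RPMI8226 minus KMS11 was -0.59 ± 0.08 and RPMI8226 minus U266 was -0.61 ± 0.08 (log2, SE; limma's adjusted p = 0.00112 and 0.000957). KMS11 and U266 overlapped, with a difference of -0.02 and a 95% interval from -0.21 to 0.18.

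XIAP, the caspase inhibitor, had 5.85 and 5.49 log2 units in RPMI8226, 5.20 and 5.30 in KMS11, and 5.15 and 4.89 in U266. Its order was RPMI8226, KMS11, U266, and the 2 lower lines did not differ past the threshold (KMS11 minus U266, 0.23 ± 0.13 on the log2 scale, SE; limma's adjusted p = 0.161). RPMI8226 minus U266 was 0.65 ± 0.13 (adjusted p = 0.00508). RPMI8226 minus KMS11, 0.42 ± 0.13 (adjusted p = 0.0297), rested on single arrays: it was 0.28 (adjusted p = 0.193) without the RPMI8226 mimic array and 0.21 (adjusted p = 0.213) without the KMS11 mimic array. Without the RPMI8226 mimic array the F test of XIAP also missed the threshold (adjusted p = 0.073), and without the KMS11 mimic array KMS11 minus U266 became 0.44 and passed it (adjusted p = 0.0298). Without the KMS11 control array the same difference was 0.025 (adjusted p = 0.888).

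Among the BH3-only genes, PMAIP1 encodes NOXA, which binds MCL1 and promotes its degradation. It had 8.78 and 8.71 log2 units in RPMI8226, 8.93 and 8.92 in KMS11, and 4.76 and 4.58 in U266. RPMI8226 and KMS11 lay close together (-0.18 ± 0.08, SE; limma's adjusted p = 0.112, 95% interval from -0.39 to 0.03), and both U266 arrays lay far lower. The log2 difference was 4.07 ± 0.08 for RPMI8226 minus U266 (adjusted p = 1.26e-06) and 4.25 ± 0.08 for KMS11 minus U266 (adjusted p = 2.2e-06). The mean in U266, 4.67, lay under the filter, so PMAIP1 was tested only through the lines where it was high. Whether its U266 signal stood above background is unknown, and no fold is given against it. Of all genes tested, 98.3% had a narrower range of line means than PMAIP1.

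BBC3, which encodes PUMA, a BH3-only protein induced by p53 and other stress factors, had 6.18 and 6.09 log2 units in RPMI8226, 5.63 and 5.42 in KMS11, and 4.71 and 4.58 in U266. Its order matched that of BCL2, with no overlap between lines. RPMI8226 minus KMS11 was 0.61 ± 0.08 and KMS11 minus U266 was 0.88 ± 0.08 (log2, SE; limma's adjusted p = 0.00107 and 0.000273). RPMI8226 minus U266 was 1.49 ± 0.08 (adjusted p = 3e-05). The mean of BBC3 in U266, 4.64, also lay under the filter, with the same limit as for PMAIP1.

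BCL2L11, which encodes BIM, the BH3-only protein that binds all the main survival proteins and can activate BAX and BAK1, had 7.81 and 8.13 log2 units in RPMI8226, 6.31 and 6.36 in KMS11, and 7.04 and 7.06 in U266. RPMI8226 was the high line and KMS11 the low one, 1.64 ± 0.10 apart (log2, SE; limma's adjusted p = 5.92e-05), or 3.11-fold. U266 lay between them, and both steps passed the threshold: RPMI8226 minus U266 was 0.92 ± 0.10 (adjusted p = 0.000464) and KMS11 minus U266 was -0.72 ± 0.10 (adjusted p = 0.00153).

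BIK, a BH3-only protein of the endoplasmic reticulum, was the member whose lines did not pass the F test (limma's adjusted p = 0.0732). It had 5.46 and 5.42 log2 units in RPMI8226, 5.31 and 4.99 in KMS11, and 5.32 and 5.13 in U266. KMS11 and U266 overlapped, and the range of the line means, 0.28, was narrower than the gap of 0.32 between the 2 KMS11 arrays. The single contrast RPMI8226 minus KMS11 reached an adjusted p of 0.0427 (0.28 ± 0.10), which became 0.24 without the RPMI8226 control array (0.18) and 0.287 without the KMS11 control array (0.18).

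The pore-forming genes followed other orders. BAX had 5.93 and 5.76 log2 units in RPMI8226, 6.47 and 6.52 in KMS11, and 6.05 and 6.0 in U266, so that KMS11 was high and the other lines were close. RPMI8226 minus KMS11 was -0.65 ± 0.09 and KMS11 minus U266 was 0.47 ± 0.09 (log2, SE; limma's adjusted p = 0.00131 and 0.00498), while RPMI8226 minus U266 was -0.17 (95% interval from -0.40 to 0.05, adjusted p = 0.138). BAK1 had 6.44 and 6.62 in RPMI8226, 7.20 and 7.14 in KMS11, and 7.17 and 7.26 in U266. Here too RPMI8226 was low, with RPMI8226 minus KMS11 at -0.64 ± 0.09 and RPMI8226 minus U266 at -0.69 ± 0.09 (adjusted p = 0.00153 and 0.0011), and KMS11 and U266 overlapped (-0.04, 95% interval from -0.27 to 0.19). MCL1, which encodes 1 of the survival proteins that hold the pore formers in check, had the same low line as BAK1. The other BCL2-type survival genes did not, with BCL2L1 lowest in KMS11 and BCL2 lowest in U266.

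Counted by contrast, the members were split in both directions. In RPMI8226 minus KMS11, 9 of 10 passed (65% of all genes tested), 6 higher in RPMI8226 (29.4% of all genes) and 3 lower (35.6%). In RPMI8226 minus U266, 8 passed (67.4% of all genes), 5 higher in RPMI8226 (32.4%) and 3 lower (35.1%). In KMS11 minus U266, 6 passed (63.8% of all genes), 4 higher in KMS11 (34.0%) and 2 lower (29.8%). The counts of members higher than in U266 include PMAIP1 and BBC3 in both contrasts. Their U266 means lay under the filter, so they were tested only through the other lines. The median range of line means was 1.09 log2 units for the members and 0.77 for all genes tested, and no test was made of that difference.

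**Figure D2:**
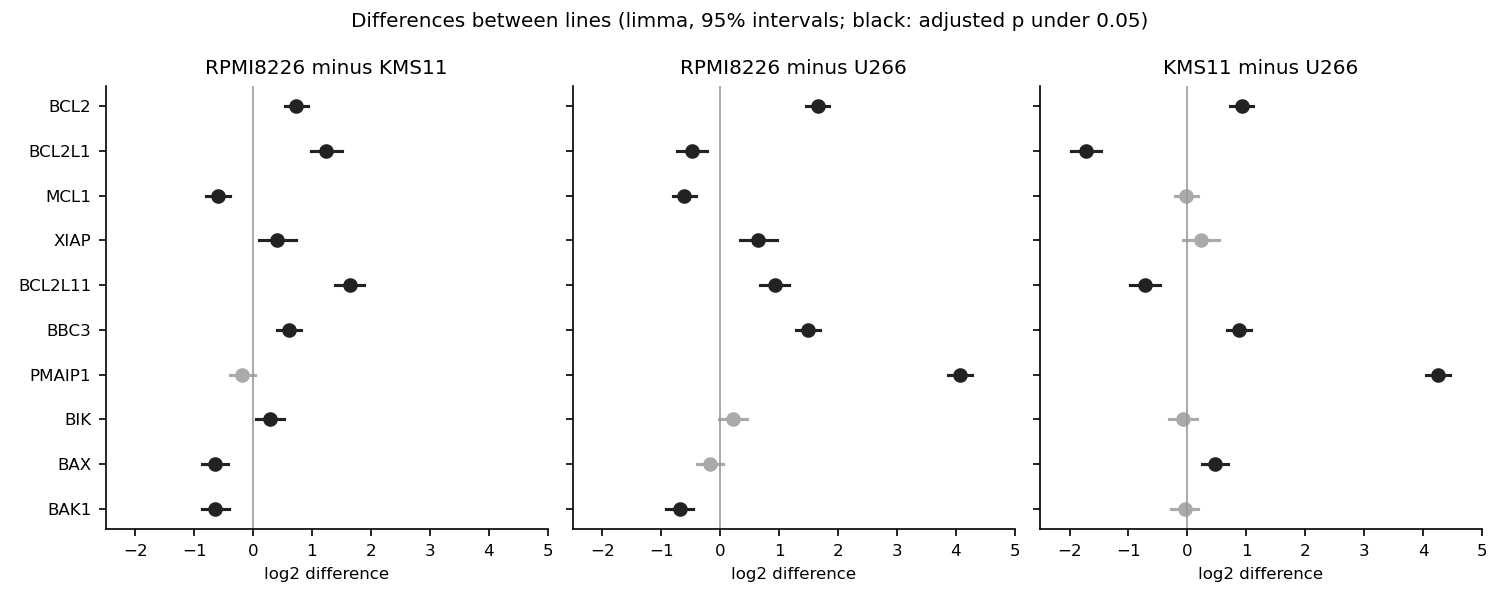
Log2 difference (x axis) of each gene in 3 contrasts between lines, with points for limma's estimate and bars for its 95% interval; black marks an adjusted p under 0.05 and grey the rest. PMAIP1 stands at 4.07 and 4.25 in the contrasts with U266, and BCL2L1 lies on the other side of 0 from BCL2 there.

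**Figure D3:**
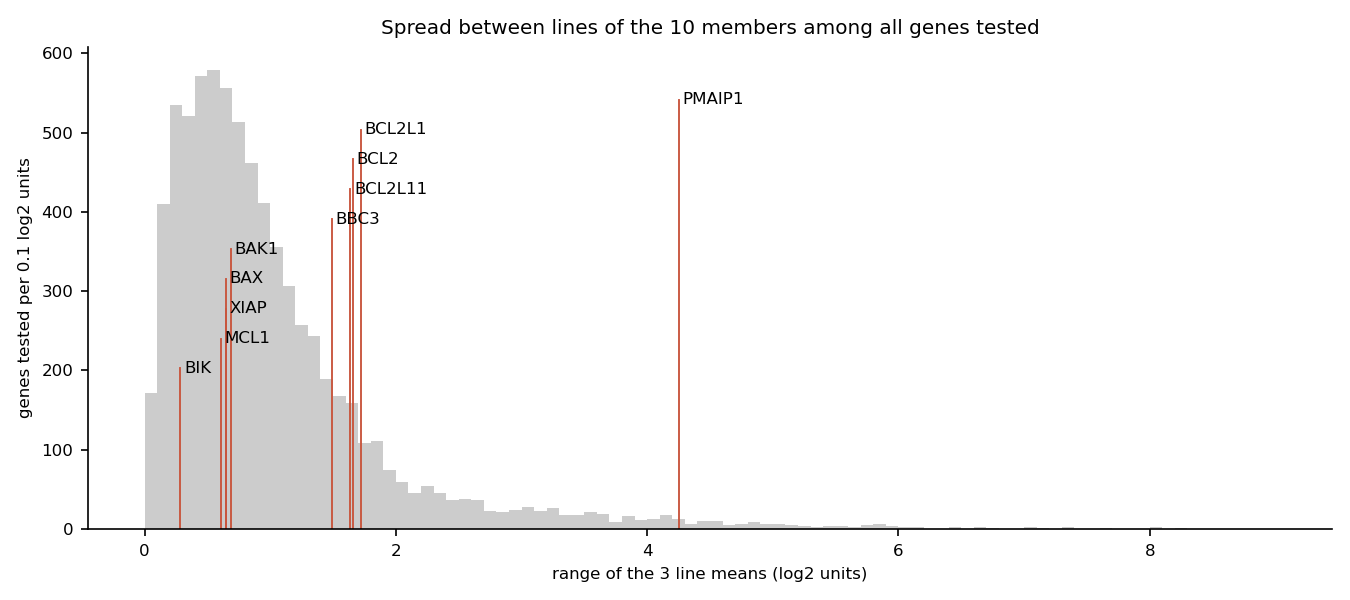
Number of tested genes (y axis, per 0.1 log2 units) by the range of their 3 line means (x axis, log2 units), with red lines of staggered height for the 10 members. PMAIP1 lies at 4.25 in the tail, 4 members lie between 1.49 and 1.72, and 5 lie at or under 0.69, below the median of all genes at 0.77.

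Promoters of the 3 genes that stepped down to U266 from both other lines, PMAIP1, BBC3 and BCL2, are shown because these members share that low line. Each is the 250 bases before the RefSeq start (GRCh38.p14), at chr18:59899746-59899995 on the plus strand for PMAIP1, chr19:47232668-47232917 on the minus strand for BBC3 and chr18:63319770-63320019 on the minus strand for BCL2. Capitals mark the E-box CACGTG, read by MYC and related factors, and the half-site CGTCA or its complement TGACG, read by factors of the CREB and ATF family.
PMAIP1: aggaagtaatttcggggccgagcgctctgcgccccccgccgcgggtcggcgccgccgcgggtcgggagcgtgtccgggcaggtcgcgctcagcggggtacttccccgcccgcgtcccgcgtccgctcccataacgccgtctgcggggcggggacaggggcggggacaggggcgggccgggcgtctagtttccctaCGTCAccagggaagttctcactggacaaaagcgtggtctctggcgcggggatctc
BBC3: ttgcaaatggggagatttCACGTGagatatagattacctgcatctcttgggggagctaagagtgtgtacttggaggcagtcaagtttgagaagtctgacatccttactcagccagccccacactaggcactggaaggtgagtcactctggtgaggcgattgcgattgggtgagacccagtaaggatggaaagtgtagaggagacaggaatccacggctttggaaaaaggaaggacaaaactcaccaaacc
BCL2: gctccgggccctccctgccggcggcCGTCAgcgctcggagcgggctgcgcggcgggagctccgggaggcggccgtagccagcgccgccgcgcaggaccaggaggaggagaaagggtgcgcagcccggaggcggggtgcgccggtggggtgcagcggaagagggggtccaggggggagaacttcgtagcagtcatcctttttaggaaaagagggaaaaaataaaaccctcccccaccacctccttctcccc

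PMAIP1 and BCL2 each held 1 half-site and no E-box, and BBC3 held 1 E-box and no half-site, so the 3 promoters shared neither motif. Over all 35116 promoters of the table, on both strands, 21.2% held the half-site and 6.34% the E-box. CpG dinucleotides numbered 36 in the PMAIP1 window, 24 in that of BCL2 and 4 in that of BBC3, against a median of 11 over all promoters. In the other promoters of members, BAX held 4 E-boxes and 1 half-site, which shared letters with 1 of the E-boxes, and 5 promoters of all 35116 held 4 or more. The table held promoters for 8 of the 10 members, in 11 entries. Of these 8, 5 held a half-site: PMAIP1, BCL2, BAX, XIAP and BCL2L1, which was highest in U266. A match describes the letters of this window and is not evidence of binding.

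The balance of survival and death genes was read as a difference between arrays, since the level of 1 probe set cannot be set against that of another. Each gene was centred on its mean over the 6 arrays, and the mean of the 4 survival members minus the mean of the 6 death members was taken. This balance was -0.09 and -0.18 log2 units in RPMI8226, -0.47 and -0.34 in KMS11, and 0.57 and 0.50 in U266, the line most toward survival (mimic array first). The pooled SD between the 2 arrays of a line was 0.07, and the lines did not overlap. All 3 parts differed between lines. The BH3-only genes had the widest spread. Their mean was 0.74 and 0.77 in RPMI8226, 0.23 and 0.11 in KMS11, and -0.86 and -0.98 in U266. PMAIP1 and BBC3 had U266 means under the filter (4.67 and 4.64), so the low BH3-only mean there carries that limit. The BH3-only part was not recomputed without PMAIP1, whose range of line means was 4.25 log2 units, against 1.64 for BCL2L11, the next widest of these genes. PMAIP1 and BBC3 were lowest in U266, whereas BCL2L11 and BIK were lowest in KMS11, BIK with overlap between KMS11 and U266. The low BH3-only mean of U266 thus leans on PMAIP1 and does not hold gene by gene. The survival members averaged 0.29 and 0.22 in RPMI8226, -0.23 and -0.17 in KMS11, and 0.02 and -0.12 in U266, and the pore genes -0.36 and -0.36 in RPMI8226, 0.29 and 0.28 in KMS11, and 0.06 and 0.08 in U266.

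The gap between RPMI8226 and U266 rested mainly on PMAIP1. RPMI8226 minus U266 was -0.67 with all 10 members and -0.05 without PMAIP1, while KMS11 minus U266 was -0.94 and became -0.25. With the median of each side in place of the mean, these differences were -0.18 and -0.21. RPMI8226 minus KMS11, at 0.27, was 0.20 without PMAIP1 and 0.03 with medians. No p is given for a score over genes chosen with results known.

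**Figure D4:**
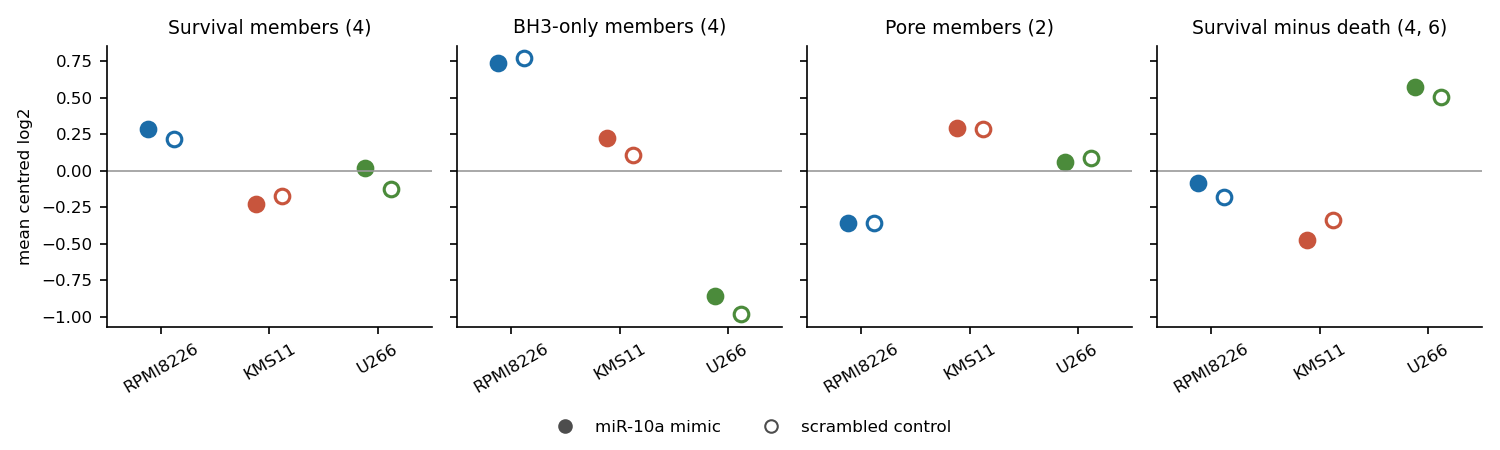
Mean centred log2 expression (y axis) of the survival, BH3-only and pore-forming members and of survival minus death members in the 6 arrays, filled for miR-10a mimic and open for scrambled control. U266 lies lowest for the mean of the BH3-only genes, at -0.86 and -0.98, and highest for the difference, at 0.57 and 0.50. Of the BH3-only genes, PMAIP1 and BBC3 were lowest in U266, and BCL2L11 and BIK were lowest in KMS11. The U266 means of PMAIP1 and BBC3 lay under the filter.

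Partners that bind each other were then set side by side, as the change of their log2 ratio between lines. Of the 9 pairs computed, PMAIP1 relative to MCL1 had measured log2 differences of 4.68 for RPMI8226 minus U266 and 4.27 for KMS11 minus U266, which rest on the U266 level of PMAIP1 under the filter. BCL2L11 relative to BCL2 was 1.87-fold higher in RPMI8226 than in KMS11, with 0.602-fold in RPMI8226 over U266 and 0.322-fold in KMS11 over U266. Relative to MCL1, BCL2L11 was 4.70-fold higher in RPMI8226 than in KMS11 and 2.89-fold higher in RPMI8226 than in U266. Relative to BCL2L1, it was 2.64-fold higher in RPMI8226 and 2.01-fold higher in KMS11 than in U266. BBC3 relative to BCL2L1 had log2 differences of 1.97 for RPMI8226 minus U266 and 2.60 for KMS11 minus U266, with BBC3 in U266 under the filter.

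For 2 of the 9 pairs the shift was small. BBC3 relative to BCL2 differed by at most 0.16 log2 units between any 2 lines, and BAK1 relative to MCL1 by at most 0.08, both less than their largest gap within 1 line (0.19 and 0.18). BBC3 in U266 lay under the filter, which limits its comparisons with that line. BAX relative to BCL2 was lowest in RPMI8226, at 0.384-fold over KMS11 and 0.281-fold over U266. BAK1 relative to BCL2L1 was highest in KMS11, at 0.270-fold in RPMI8226 over KMS11 and 3.20-fold in KMS11 over U266. Ratios of array values within a line show unequal change and do not measure amounts of protein.

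The second comparison asks what a miR-10a mimic changes in these lines. None of the 10 members was called as changed by the mimic over the 3 lines (limma, blocked by line, smallest adjusted p = 0.911, and 0 at an unadjusted p under 0.05), and 0% of all genes tested were called (403 at an unadjusted p under 0.05). The 95% interval of the mean change lay within 1.5-fold in either direction for all 10, with the widest bounds at -0.33 for BCL2L11 and 0.43 for XIAP, not corrected for the number of genes. No member reached 1.5-fold in any line, against 1.05% of all genes in RPMI8226, 0.873% in KMS11 and 1.07% in U266. For 5 members the change had 1 sign in all 3 lines, 4 higher and 1 lower with mimic, against 26.5% of all genes tested.

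The 4 members higher in every line were BCL2, BIK, BBC3 and PMAIP1, none past the threshold. For BIK the log2 change, mimic minus control, was 0.04, 0.32 and 0.19 in RPMI8226, KMS11 and U266, averaging 0.18 ± 0.14 (SD, n = 3 lines). BBC3 gave 0.09, 0.21 and 0.13, a mean of 0.14 ± 0.06. PMAIP1 gave 0.06, 0.01 and 0.17, a mean of 0.08 ± 0.08, against the 4-unit gap between lines. BCL2 was the steadiest, with 0.03, 0.02 and 0.07, a mean of 0.04 ± 0.02.

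BCL2L11 was the member lower in every line, at -0.31, -0.05 and -0.02 in the same order, averaging -0.13 ± 0.16 (log2, SD of 3 lines; limma's adjusted p = 0.917). The size rested on RPMI8226, without which the mean was -0.04. XIAP gave 0.36, -0.10 and 0.27, averaging 0.18 ± 0.24, which was 0.31 without KMS11 and 0.09 without RPMI8226. BCL2L1 gave -0.12, -0.09 and 0.19, a mean of -0.01 ± 0.17 whose sign depended on the line left out (-0.11 without U266, 0.05 without RPMI8226).

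The remaining members had small means of mixed sign. MCL1 gave 0.0012, -0.06 and 0.03 (mean -0.01 ± 0.05), BAX gave 0.17, -0.05 and 0.05 (mean 0.06 ± 0.11), and BAK1 gave -0.18, 0.07 and -0.10 (mean -0.07 ± 0.13). With the mimic, the balance of survival minus death members changed by 0.09, -0.14 and 0.07 in the same order, so the lines did not share a direction. Whether 1 line's change differed from that of the other 2 was tested with a term for that line, a test chosen after seeing the data. No member passed in any of these 3 tests, and neither did any other gene (0% of those tested). The smallest adjusted p in limma was 0.782, for BCL2L11 in RPMI8226. The widest such difference of a member was that of XIAP in KMS11, -0.41 log2 units relative to the other 2 lines.

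**Figure D5:**
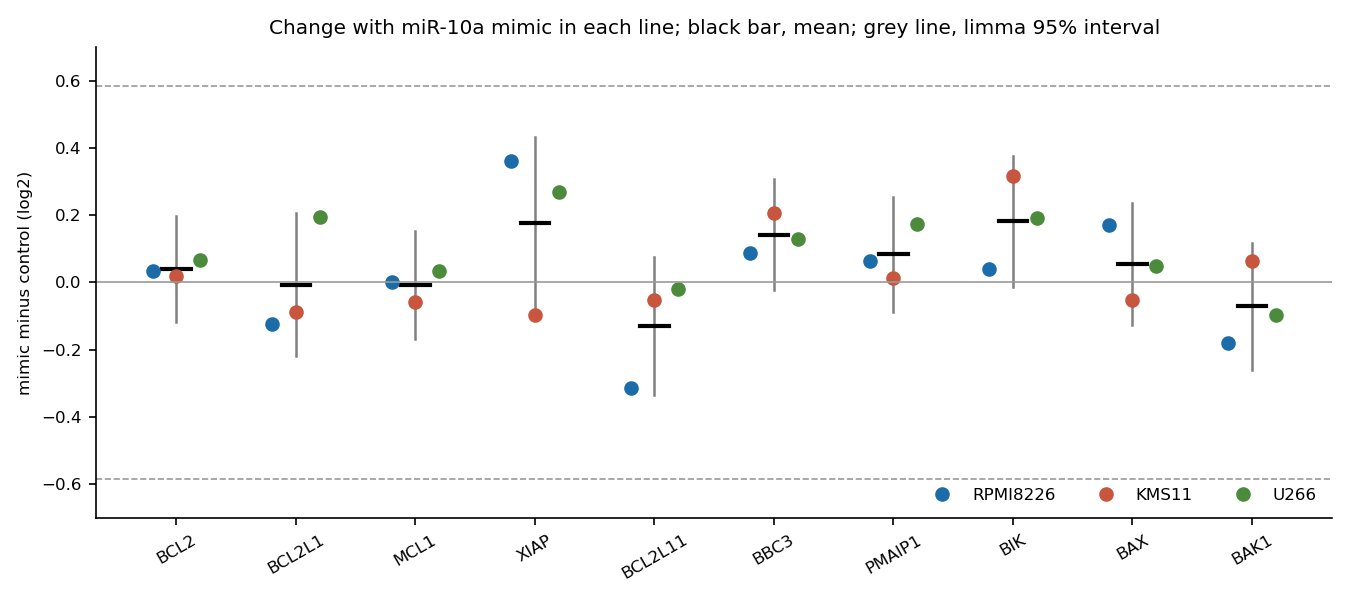
Mimic minus control (y axis, log2) of the 10 genes in RPMI8226, KMS11 and U266 (coloured points), with the mean as a black bar, limma's 95% interval as a grey line and 1.5-fold as dashed lines. Every point lies between -0.31 and 0.36, inside the dashed lines, and every interval includes 0.

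The rest of the pathway was read from 10 lists with 68 genes, among them 39 with a named probe set and 33 tested. Of these 33, 28 differed between lines by limma's F test, or 84.8%, close to the 82.4% of all genes tested. The median range of line means was 0.77 log2 units, the same as that of all genes tested. The survival genes BCL2A1 and BCL2L10 averaged 2.92 and 3.07 log2 units, under the filter, and were not tested.

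BNIP3, a BCL2-related gene induced by hypoxia that acts in mitophagy, had the widest spread. Its mean in KMS11 lay under the filter, so BNIP3 was tested only through the lines where it was higher. Whether its KMS11 signal stood above background is unknown, and the width of its spread carries that limit. BNIP3 averaged 6.06 log2 units in RPMI8226, 4.17 in KMS11 and 8.23 in U266. BCL2L12, another relative, averaged 5.62, 6.58 and 6.25 in the same lines. Of the 4 other BH3-only and effector genes, BAD, BID, BMF and BOK, 3 passed the F test (82.4% of all genes tested), and BAD, BID and BMF were higher in KMS11 than in U266 (34.0% of all genes tested). BMF, a BH3-only gene released from the cytoskeleton, averaged 6.77 in RPMI8226, 6.70 in KMS11 and 5.59 in U266, and so shared its low line with PMAIP1 and BBC3.

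Of 5 tested genes that can induce BH3-only genes, 4 passed the F test, a share near that of all genes, and ATF4 did not (limma's adjusted p = 0.0744). DDIT3, which encodes the stress factor CHOP, averaged 6.37 log2 units in RPMI8226, 7.90 in KMS11 and 5.03 in U266. FOXO3, a transcription factor that can activate BCL2L11, PMAIP1 and BBC3, averaged 6.82, 6.37 and 5.53. FOXO1, its relative, averaged 5.57, 6.77 and 5.80, and E2F1, an activator of cell cycle and BH3-only genes, had 7.22, 8.13 and 7.23. These 4 were higher in KMS11 than in U266 past limma's adjusted p of 0.05 in that contrast, as were 34.0% of all genes tested, and 0 of the 5 were lower (29.8% of all genes).

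Downstream of the pore, APAF1, the scaffold of the apoptosome, averaged 4.68 log2 units in RPMI8226, 6.38 in KMS11 and 5.39 in U266. Its RPMI8226 mean lay just under the filter of 4.70, with 4.81 in the mimic array and 4.56 in the control array. APAF1 was thus tested only through the other lines, and whether its RPMI8226 signal stood above background is unknown. XAF1, an antagonist of XIAP, averaged 5.41, 6.02 and 7.01. It was higher in U266 than in RPMI8226 (limma's adjusted p = 0.00119), whereas XIAP was lower in U266 than in RPMI8226. For XAF1, RPMI8226 minus KMS11 missed the threshold (limma's adjusted p = 0.0535). Its 2 U266 arrays lay 0.96 apart. BIRC5, which encodes survivin, averaged 6.70, 7.64 and 7.66. BTRC, a ubiquitin ligase subunit that can mark MCL1 for degradation, averaged 5.72, 6.97 and 7.34, and MFN1, a mitochondrial fusion gene, 8.94, 7.46 and 8.08.

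With mimic, 0 of the 33 pathway genes were called, 13 were higher and 20 lower by sign, with a median change of -0.03 against -0.0029 for all genes tested, and 2 had an unadjusted p under 0.05, FOXO3 and DDIT3. Over all genes tested 48.9% were higher by sign, and 403 of 7442 had such a p, so these counts are near the background. FOXO3 gave -0.19, -0.19 and -0.22 in RPMI8226, KMS11 and U266, averaging -0.20 ± 0.02 (log2, SD of 3 lines; limma's adjusted p = 0.889). DDIT3 gave -0.22, -0.09 and -0.29, and BCL2L13, a mitophagy receptor gene, -0.11, -0.07 and -0.24. XAF1 gave -0.02, -0.19 and -0.96, so its mean of -0.39 came mainly from U266.

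The genes whose values ran most like those of the 3 widest members were found by the distance between centred profiles over the 6 arrays, which come from 3 lines. For PMAIP1 the nearest was PHLPP1, a phosphatase of AKT (distance 0.21 log2 units), with 8.44 and 8.40 in RPMI8226, 8.50 and 8.63 in KMS11 and 4.36 and 4.42 in U266, followed by CPPED1 (0.33) and ST14 (0.34). For BCL2L1 they were GAB1 (0.23), FGD5-AS1 (0.26) and PEAK1 (0.30). For BCL2 they were UNC119 (0.10), KLF6 (0.14) and ACSL1 (0.16). Both U266 arrays of PHLPP1, CPPED1 (3.35 and 3.16), ST14 (3.64 and 3.45) and UNC119 (4.55 and 4.41) lay under the filter of 4.70. So did both KMS11 arrays of PEAK1 (4.41 and 4.55). These genes were tested only through the other lines, and whether their low values stood above background is unknown, which limits the likeness. With 3 lines many genes share an order, so the likeness is a description.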

How the data were processed

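Values were used on the log2 scale as deposited, in 1 table with 53617 probe sets and 6 arrays. Affymetrix Expression Console 1.3.0 is named per the submitters' processing notes. How background, normalization and summarization were handled, and on which build, is not given in the sources used here, and the table has no detection calls. Array medians lay between 3.61 and 3.66. The platform annotation gave 1 gene symbol for 16098 probe sets, several for 0, and 37519 were unnamed here. All 16098 gene identifiers matched RefSeq's GRCh38.p14 table.

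For each gene the probe set with the highest mean was kept, and genes at or above the median of named genes (4.70) were tested with lmFit and eBayes of limma 3.58.1 (R 4.3.3; two-sided, Benjamini-Hochberg over 7442 genes, threshold 0.05). The model held the cell line and the treatment, with 2 residual and 3.82 prior degrees of freedom. It gave the mimic effect with the line as a block, and the F test and contrasts between lines. The line label pairs the arrays: deviations of a line's 2 arrays from their treatment means correlated at 0.967 to 0.970 across genes. Changes within a line have no replicate and no test. The number of arrays limits the precision. The scripts were tested on simulated data.

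The 10 members and the lists were chosen with earlier results of these data known. Named genes are the 10 members, the 12 pathway genes past the F test with the widest range, the 4 with the widest mean change in 1 direction in all lines, the 3 profiles nearest to each of the 3 widest members, and the highest markers; FCRL5, CD38, SLAMF7, ATF4, BAD, BID, BOK, BCL2A1 and BCL2L10 were added after their values were seen, to complete a count. Alternatives covered the filter, normalization, probe sets, variance trend, block and single arrays. The promoter and microRNA sequences are RefSeq's.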

Additional observations from a re-analysis of the deposited data

How the results depend on the processing

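Over all alternatives run, no gene and no member was called for the mimic, including the fit with no replicate block (0 genes, smallest adjusted p = 1.00) and those leaving out a line (0 members). Limiting the test to the upper 25% of genes, which holds fewer genes, gave 3474 genes in the F test against 6135. Only 6 members remained, BCL2, MCL1, BCL2L1, BCL2L11, PMAIP1 and BAK1, and all of them passed the F test. In RPMI8226 minus KMS11, 5 of these 6 passed, against 9 of 10 in the main fit. Leaving out 1 array gave 5729 to 5978 genes and 8 to 9 members in the F test, with a lone array assumed to vary like the others. BIK in RPMI8226 minus KMS11 missed the threshold with no filter, centred arrays, quantile normalization, a variance trend or no treatment term (adjusted p from 0.0711 to 0.0993), and XIAP there with no filter (0.0596). Signs turned for differences near 0, and the cause was not tested: MCL1 in KMS11 minus U266 was 0.013 with centred arrays, 0.032 with quantile normalization and -0.053 to 0.021 without single arrays, BAK1 there was 0.017 with quantile normalization and -0.15 to 0.058 without single arrays, and BIK there was -0.17 to 0.028. With quantile normalization the BCL2L1 change with mimic was 0.0052. Leaving out a line gave -0.11 to 0.052 for BCL2L1, -0.028 to 0.017 for MCL1 and -0.0024 to 0.11 for BAX.

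The balance depended on its members: without XIAP, RPMI8226 minus U266 was -0.78 and KMS11 minus U266 -1.07, without PMAIP1 (chosen after seeing the data) -0.049 and -0.25, and with medians -0.18 and -0.21, where RPMI8226 minus KMS11 was 0.028. The other 14 balance values moved by less than the SD between arrays. The settings for the filter, probe sets and centred arrays could not move the balance and do not test it. All 10 members passed the filter with 1 probe set each, and a shift of a whole array cancels. Quantile normalization could move it, and gave -0.67 for RPMI8226 minus U266, -0.95 for KMS11 minus U266 and 0.28 for RPMI8226 minus KMS11.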

Other observations

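PMAIP1, PHLPP1 and BCL2 lie in this order on chromosome 18 in the RefSeq table. From PMAIP1 to BCL2 the table lists 10 protein-coding genes, and 4 genes of this stretch were tested, PMAIP1, RELCH, PHLPP1 and BCL2. All 4 were lower in U266 than in both other lines past limma's adjusted p of 0.05, against 18.9% of all genes tested. The levels of PMAIP1, PHLPP1 and BCL2 were known before the stretch was looked at, so the count is a description to which only RELCH adds. The U266 means of PMAIP1 (4.67) and PHLPP1 (4.39) lay under the filter of 4.70. The differences were unequal: RPMI8226 minus U266 was 4.07 for PMAIP1, 0.30 for RELCH, an endosomal protein gene, 4.02 for PHLPP1 and 1.66 for BCL2, and KMS11 minus U266 was 4.25, 0.47, 4.18 and 0.92 (log2). DNA copy number was not measured here.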
